A study of Arabidopsis thaliana with 12 samples.

Results

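Glucosinolates are sulfur-rich glucosides that Arabidopsis and its relatives keep in their tissues as a store of defence compounds. The 10 genes described here were chosen by their place in that pathway. BCAT4 (AT3G19710), MAM1 (AT5G23010), CYP79F1 (AT1G16410) and CYP83A1 (AT4G13770) belong to the aliphatic branch, and CYP79B2 (AT4G39950), CYP79B3 (AT2G22330) and CYP83B1 (AT4G31500) to the indolic branch. SUR1 (AT2G20610) is the shared enzyme gene, MYB28 (AT5G61420) the aliphatic regulator gene, and ESM1 (AT3G14210) acts in glucosinolate breakdown. They were taken by their AGI locus identifiers, 10 of 36917 identifiers in each table of read counts, and 9 of the 10 had enough counts to be tested. CYP79F1 did not pass the low-count filter.

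Whole seedlings of Arabidopsis thaliana, 4 d old, were sequenced in 4 genotypes with 3 libraries each. These were wild type (Col-0), the gun1-103 line (SAIL_742_A11), the fug1-3 line (SAIL_209_E08) and the gun1-103 fug1-3 double mutant, so that each gene is represented by 1 allele. GUN1 encodes a plastid pentatricopeptide repeat protein of chloroplast-to-nucleus signalling, while the product of FUG1 helps to start protein synthesis in plastids. All seedlings were kept for 2 d at 4 °C in the dark and then grown at 22 °C in 16 h light at 100 µmol per square metre per second and 8 h dark, on medium with 1% sucrose. The labels do not say whether libraries of 1 genotype came from separate plates or pools, so p-values measure the spread between these libraries only.

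In the aliphatic branch methionine is first lengthened and then turned into the glucosinolate core, and much of the lengthening takes place in the chloroplast. In the indolic branch tryptophan is converted by a parallel set of cytochromes P450, and both branches join at SUR1. When tissue is damaged, myrosinases cut the glucosinolates, and accessory proteins such as ESM1 help to decide which breakdown products form.

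Each library held between 8519197 and 12360838 counts, of which plastid-encoded genes took 53.4% to 84.4%. One library stood apart, gun1 fug1 replicate 3: 23881 identifiers had no count in it, against 13359 to 16417 in the other libraries, and its correlation with the other 2 libraries of its genotype across genes was 0.72 to 0.73, against 0.92 to 0.97 for the other replicate pairs. A level of 1 CPM (the count scaled by library size and TMM factor) stood for 0.834 counts in it and for 7.36 to 25.2 counts elsewhere, so its values for single genes rest on few reads. Values without it are given beside the tests of the double mutant. GUN1 counts were 4.09-fold lower in gun1 and 3.81-fold lower in gun1 fug1 than in wild type, and FUG1 counts were 4.05-fold lower in fug1 and 3.53-fold lower in gun1 fug1. Fewer cells of a type and less RNA per cell cannot be told apart in RNA from whole seedlings.

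**Figure D1:**
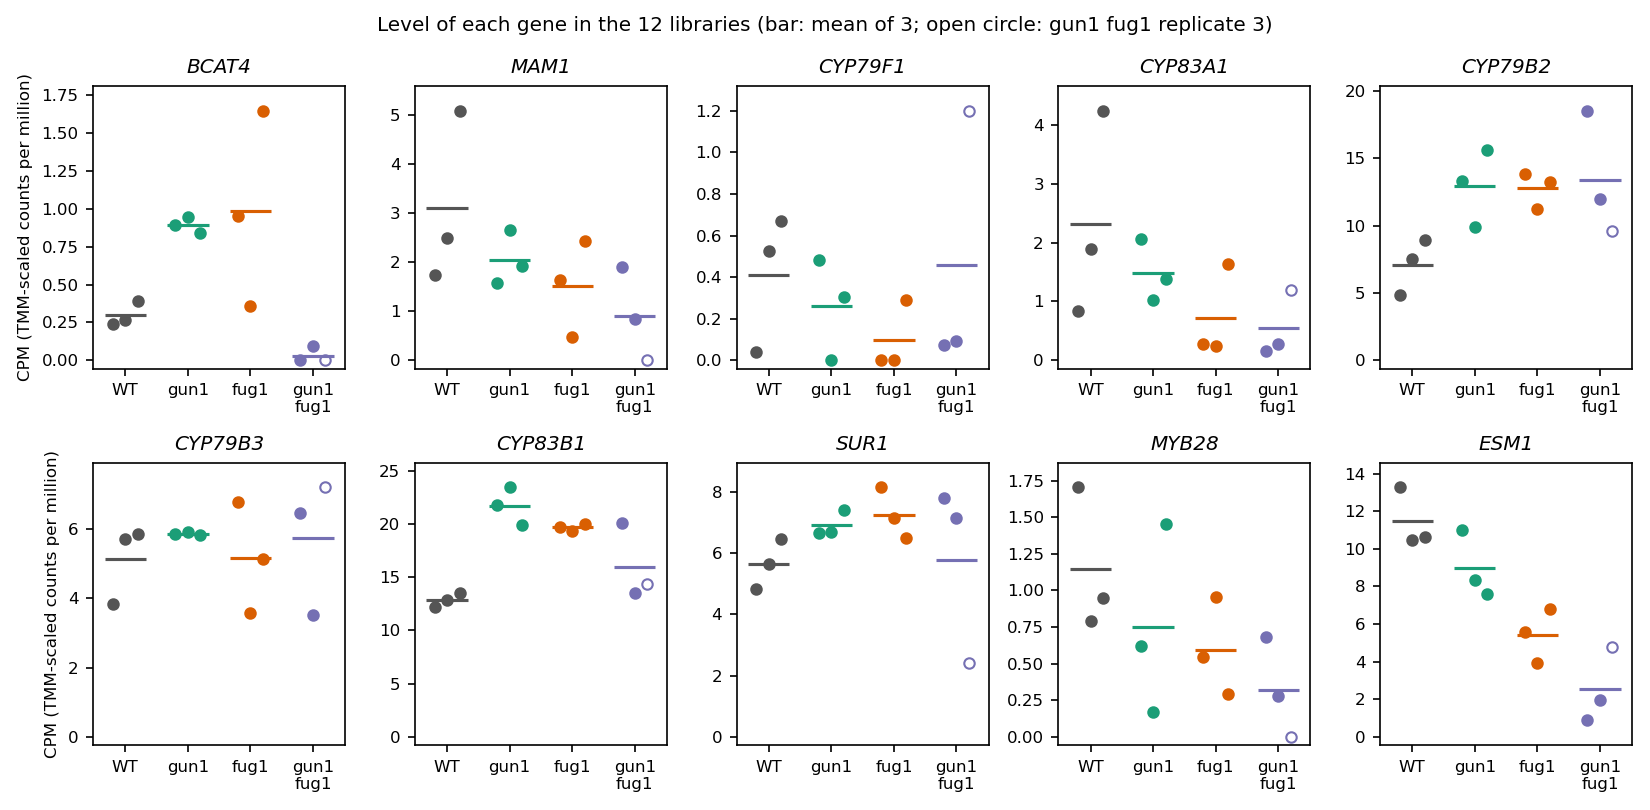
Level of each of the 10 genes (y axis, CPM after TMM scaling, each panel with its own range from 0) in the 12 libraries, with bars at the mean of 3 libraries. ESM1 steps down from wild type (10.4 to 13.3 CPM) to gun1 fug1 (0.910 to 4.80 CPM), BCAT4 is nearest to 0 in gun1 fug1 (1 count in all), and CYP79B2 lies above wild type in every library of the 3 mutants on this scaling. By library totals the sign of CYP79B2 turned in fug1, and in gun1 fug1 with replicate 3 (-0.022) but not without it (0.55). The open circle is gun1 fug1 replicate 3.

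Per kilobase of exon, the indolic enzyme genes stood above the aliphatic ones on average in wild type. CYP83B1 was highest at 6.78 ± 0.332 CPM per kb (SD, n = 3). ESM1 followed at 5.87 ± 0.806, with ranges that overlapped those of CYP83B1 (5.36 to 6.80 against 6.44 to 7.11). CYP79B2 at 3.32 ± 0.975, SUR1 at 3.02 ± 0.438 and CYP79B3 at 2.29 ± 0.50 came next, each overlapping its neighbour. MAM1 at 1.51 ± 0.854 and CYP83A1 at 1.22 ± 0.913 overlapped each other. With highest values of 2.48 and 2.22 they also overlapped CYP79B3 (1.71 to 2.61). Below them on average lay MYB28 at 0.580 ± 0.246, BCAT4 at 0.205 ± 0.0564 and CYP79F1 at 0.126 ± 0.101. MYB28 overlapped CYP83A1, and CYP79F1 overlapped BCAT4. The CYP79F1 level was divided by 3272 exon bases, against a coding sequence of 1617 bases. In gun1 fug1 the 4 aliphatic enzyme genes lay between 0.0213 and 0.444 CPM per kb on average. CYP79F1, at 0.139, was not below its wild-type mean there. Its 1 count in gun1 fug1 replicate 3 scaled to 1.20 CPM, against 0.0759 and 0.0929 CPM in replicates 1 and 2. Its summed counts are compared below. The other 3 had lower means than in wild type. In gun1 fug1 CYP83B1 stayed first at 8.41 ± 1.89, while ESM1 stood at 1.31 ± 1.03, below CYP79B2, SUR1 and CYP79B3 on average.

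The first question was which of these genes differed between gun1 and wild type. Of the 9 genes tested, 2 were called higher and 0 lower at an adjusted p under 0.05 (edgeR's quasi-likelihood test with Benjamini-Hochberg adjustment over 15371 genes), against 3.52% of all genes tested called higher and 2.42% called lower. Both belong to the indolic branch. At an unadjusted p under 0.05 there were 3 higher, with BCAT4 added, and 0 lower, and DESeq2 called 1 higher, CYP83B1, and 0 lower.

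CYP79B2 encodes a P450 that turns tryptophan into indole-3-acetaldoxime, the entry step of indolic glucosinolates and of camalexin. It stood at 4.83, 7.55 and 8.93 CPM in wild type and at 13.3, 9.87 and 15.6 CPM in gun1. Every gun1 library was above every wild-type library. The fitted difference was a log2 fold change of 0.87 ± 0.24 (SE), 1.83-fold higher, with adjusted p = 0.0314. CYP83B1, the next P450, which oxidises the aldoxime, stood at 12.2, 12.9 and 13.5 CPM in wild type and at 21.7, 23.4 and 19.9 CPM in gun1, again with no overlap. Its log2 fold change was 0.75 ± 0.19, 1.68-fold higher, with adjusted p = 0.0194.

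The close copy of CYP79B2, CYP79B3, which catalyses the same reaction, stood at 3.84, 5.70 and 5.86 CPM in wild type and at 5.85, 5.92 and 5.82 CPM in gun1. The gun1 libraries lay within or beside the upper wild-type values, and the log2 fold change of 0.20 ± 0.25 did not pass (adjusted p = 0.686). SUR1, the C-S lyase that both branches need, had 4.83, 5.65 and 6.47 CPM in wild type and 6.67, 6.69 and 7.42 CPM in gun1. Its libraries did not overlap, and its log2 fold change of 0.30 ± 0.22 did not pass either (adjusted p = 0.440). BCAT4, the aminotransferase that starts the lengthening of methionine, had 6, 5 and 7 counts in wild type and 13, 11 and 11 counts in gun1. It passed the low-count filter only through these gun1 libraries and fug1 replicate 3 (17 counts). Comparisons of BCAT4 that involve gun1 or fug1 are therefore not independent of the filter. Its level rested on few reads, its libraries did not overlap, and its log2 fold change of 1.58 ± 0.52 had adjusted p = 0.0728. The other aliphatic genes and ESM1 had log2 fold changes of -0.59 (MAM1), -0.59 (CYP83A1), -0.62 (MYB28) and -0.35 (ESM1), with overlapping libraries and adjusted p from 0.410 to 0.594.

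Both gun1 calls were near the threshold, and leaving out any 1 of several libraries ended them with log2 fold changes of 0.63 to 0.91. CYP79B2 was no longer called without wild type 1 (0.63, adjusted p = 0.238), without wild type 2 (0.91, adjusted p = 0.128) or without gun1 replicate 3 (0.69, adjusted p = 0.209), nor by DESeq2 (0.84, adjusted p = 0.0874), and CYP83B1 was no longer called without wild type 1 (0.69, adjusted p = 0.142), wild type 2 (0.73, adjusted p = 0.133), gun1 replicate 2 (0.69, adjusted p = 0.0958) or gun1 replicate 3 (0.78, adjusted p = 0.0664).

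CYP79B2 was called and CYP79B3 was not, although both encode the same step, so the 250 bases before each annotated gene start are shown here. The difference between the 2 genes was not tested. Of the 45 pairs among the 10 genes, this pair shared the longest identical run in these windows, 22 bases against 7 to 16 in the other 44 pairs. The run, in capitals, begins 77 bases before the start of CYP79B2 and 151 bases before that of CYP79B3. The windows are chr4:18524792-18525041 and chr2:9488163-9488412, both on the plus strand (RefSeq, TAIR10.1), and the coding sequences of the genes are 78.1% identical with no identical run over 32 bases.
CYP79B2: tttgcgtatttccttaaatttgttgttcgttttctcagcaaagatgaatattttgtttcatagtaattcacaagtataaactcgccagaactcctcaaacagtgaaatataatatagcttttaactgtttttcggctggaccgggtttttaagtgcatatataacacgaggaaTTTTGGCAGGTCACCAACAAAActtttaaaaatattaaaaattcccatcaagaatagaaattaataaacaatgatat
CYP79B3: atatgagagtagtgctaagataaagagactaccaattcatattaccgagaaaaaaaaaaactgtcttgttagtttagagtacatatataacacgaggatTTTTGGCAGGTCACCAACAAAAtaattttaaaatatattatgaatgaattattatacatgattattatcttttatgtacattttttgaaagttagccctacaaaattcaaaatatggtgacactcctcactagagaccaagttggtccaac

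The ratio of the counts of these copies within a library does not depend on scaling. CYP79B2 had 1.26, 1.32 and 1.52 counts per CYP79B3 count in wild type. The ratio was 2.27, 1.67 and 2.68 in gun1, then 2.04, 3.13 and 2.58 in fug1, while the double mutant had 2.87, 3.39 and 1.33. All libraries of both single mutants were above all of wild type. In gun1 fug1 replicate 3, which held 8 and 6 counts of the 2 genes, the ratio fell within the wild-type range. This ratio was chosen after its values were seen and is given without a test.

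The comparison of fug1 with wild type called 4 of the 9 genes, 3 higher and 1 lower, against 9.94% of all genes tested called higher and 7.88% called lower. The indolic genes CYP79B2 and CYP83B1 were higher, as was BCAT4, and ESM1 was lower. CYP79B2 stood at 13.9, 11.2 and 13.3 CPM in fug1, above every wild-type library, with a log2 fold change of 0.85 ± 0.24 (1.81-fold, adjusted p = 0.0184). CYP83B1 stood at 19.69, 19.29 and 20.04 CPM, a narrow range that lay wholly above wild type, with a log2 fold change of 0.61 ± 0.19 (1.53-fold, adjusted p = 0.0285). CYP79B3 had 6.79, 3.57 and 5.13 CPM, spread across the wild-type values, and a log2 fold change of 0.0088 ± 0.26. SUR1 had 8.15, 7.15 and 6.49 CPM, all above wild type by a small margin, and its log2 fold change of 0.36 ± 0.22 did not pass (adjusted p = 0.269).

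ESM1, epithiospecifier modifier 1, is a GDSL-family protein that favours isothiocyanates over nitriles when glucosinolates are hydrolysed. Its counts were 335, 198 and 191 in wild type and 41, 33 and 70 in fug1, which gave 13.3, 10.4 and 10.7 CPM against 5.57, 3.93 and 6.78 CPM. Every fug1 library was below every wild-type library. The log2 fold change was -1.07 ± 0.26, 2.1-fold lower, with adjusted p = 0.00715. In gun1 it stood at 11.01, 8.32 and 7.58 CPM, with values that overlapped wild type and lay above all of fug1.

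BCAT4 had 7, 3 and 17 counts in fug1, or 0.951, 0.357 and 1.65 CPM, against 0.238, 0.264 and 0.391 CPM in wild type. The second fug1 library lay within the wild-type range and the third was far above it. The log2 fold change was 1.76 ± 0.54 with adjusted p = 0.0280, and without fug1 replicate 3 it was 1.11 with adjusted p = 0.311. The locus of BCAT4 (chr3:6846969-6849582, minus strand) overlaps that of IKU2, which had 0 to 5 counts in each library, and it is not given in the sources used here whether reads were counted by strand. CYP83A1, the aliphatic counterpart of CYP83B1, had 21, 36 and 76 counts in wild type and 2, 2 and 17 counts in fug1. Replicates 1 and 2 of fug1 lay at 0.272 and 0.238 CPM, below all of wild type, and replicate 3 at 1.65 CPM lay inside the wild-type range of 0.832 to 4.24 CPM. Its log2 fold change of -1.53 ± 0.68 did not pass (adjusted p = 0.135), and passed without wild type 1 (-1.99, adjusted p = 0.0334) and without fug1 replicate 3 (-3.12, adjusted p = 0.0265). MAM1, which condenses the methionine-derived acid with acetyl-CoA, had a log2 fold change of -0.98 ± 0.49 (adjusted p = 0.177). MYB28, the R2R3 MYB factor that switches on the aliphatic genes, had -0.99 ± 0.59 (adjusted p = 0.251), and libraries of both overlapped wild type.

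Leaving out 1 library ended each fug1 call, and by DESeq2 ESM1 alone was called (adjusted p = 0.0206). CYP79B2 was no longer called without wild type 1 (0.60, adjusted p = 0.153), wild type 2 (0.88, adjusted p = 0.0663), fug1 replicate 1 (0.79, adjusted p = 0.0738) or fug1 replicate 3 (0.82, adjusted p = 0.0678). CYP83B1 was no longer called without any 1 of the 6 libraries compared (0.55 to 0.63, adjusted p 0.0635 to 0.148), ESM1 without fug1 replicate 2 (-0.88, adjusted p = 0.0520), and BCAT4 also without wild type 1 (1.57, adjusted p = 0.127), wild type 2 (1.66, adjusted p = 0.111) or fug1 replicate 1 (1.79, adjusted p = 0.0722).

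**Figure D2:**
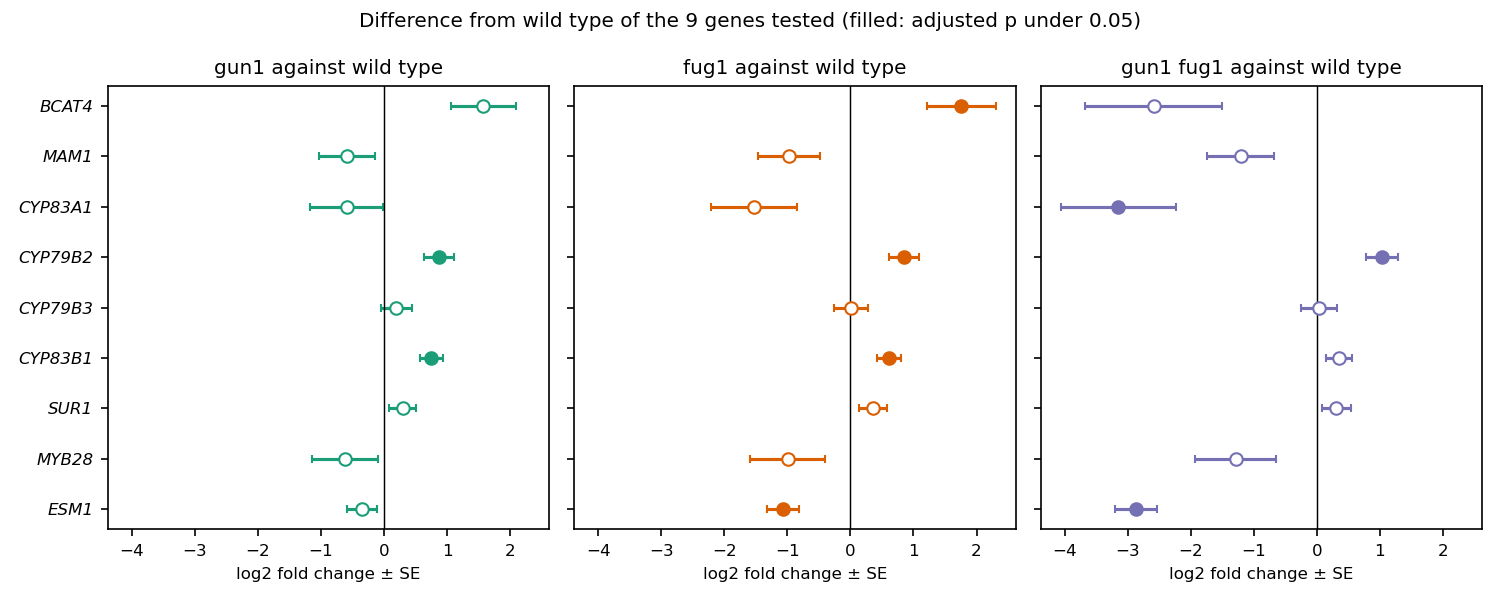
Log2 fold change against wild type with its standard error (x axis) of the 9 genes tested in gun1, fug1 and gun1 fug1, each fitted over all 12 libraries, with filled circles where adjusted p was under 0.05. CYP79B2 is filled and to the right in each panel, ESM1 lies at -0.35, -1.07 and -2.86, and BCAT4 lies to the right of 0 in both single mutants and at -2.59 in gun1 fug1. By library totals the sign of both CYP79B2 and CYP83B1 turned in fug1 and gun1 fug1, but without gun1 fug1 replicate 3 CYP79B2 stayed positive in gun1 fug1 (0.55).

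The double mutant against wild type gave 3 calls among the 9 genes, CYP79B2 higher and CYP83A1 and ESM1 lower, against 12% of all genes tested called higher and 9.88% called lower. The same number was called without gun1 fug1 replicate 3. ESM1 had 12, 21 and 4 counts in gun1 fug1, or 0.910, 1.95 and 4.80 CPM. All 3 libraries were below every wild-type library, and replicate 3 was the highest of them on 4 counts. The log2 fold change was -2.86 ± 0.34, 7.27-fold lower, with adjusted p = 4.82e-06, the 33rd smallest p of all genes tested. Without gun1 fug1 replicate 3 it was -3.03 ± 0.31, and it was called in 12 of 12 fits that left out 1 library.

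CYP83A1 had 2, 3 and 1 counts in gun1 fug1, or 0.152, 0.279 and 1.20 CPM. Replicates 1 and 2 were below all of wild type, while the 1 count of replicate 3 scaled to a value inside the wild-type range. The log2 fold change was -3.15 ± 0.91, 8.86-fold lower, with adjusted p = 0.0248. It was -3.38 ± 0.99 without gun1 fug1 replicate 3 (adjusted p = 0.0260) and was no longer called without gun1 fug1 replicate 1 (-2.63, adjusted p = 0.168) or replicate 2 (-3.29, adjusted p = 0.124). BCAT4 had 0, 1 and 0 counts in gun1 fug1 against 18 in the 3 wild-type libraries together. From the summed counts and library sizes it was 7.18-fold lower, with an exact binomial 95% interval of 1.13 to 299 that covers counting error only, and its test gave adjusted p = 0.0906 (0.101 without gun1 fug1 replicate 3). CYP79F1, the P450 that makes aldoximes from lengthened methionine, had 1, 10 and 12 counts in wild type and 7, 0 and 4 in gun1. The fug1 libraries had 0, 0 and 3 counts and the double mutant 1 count in each. Its summed counts gave a level 3.22-fold lower in fug1 than in wild type, with a counting interval of 0.973 to 16.8, and 3.06-fold lower in gun1 fug1, with an interval of 0.924 to 15.9, so that no difference was detectable at this depth. Reads of CYP79F1 can also be shared with CYP79F2, which lies 1.18 kb away and is 90.7% identical to it over the coding sequence. MAM1 had 25, 9 and 0 counts in gun1 fug1 and a log2 fold change of -1.20 ± 0.53 (adjusted p = 0.116), which passed only without wild type 1 among the fits that left out 1 library (-1.55, adjusted p = 0.0470), and which was -1.12 without gun1 fug1 replicate 3. MYB28 had 9, 3 and 0 counts, all at lower CPM than any wild-type library, and a log2 fold change of -1.29 ± 0.64 (adjusted p = 0.153), or -1.22 without gun1 fug1 replicate 3.

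On the indolic side CYP79B2 stood at 18.5, 11.98 and 9.60 CPM in gun1 fug1, all above wild type, with a log2 fold change of 1.03 ± 0.25 (2.05-fold, adjusted p = 0.00534). It was 1.12 ± 0.24 without gun1 fug1 replicate 3, and was no longer called without wild type 1 (0.76, adjusted p = 0.0619) or gun1 fug1 replicate 1 (0.69, adjusted p = 0.123). CYP83B1 had 20.1, 13.5 and 14.4 CPM. Replicate 1 resembled the single mutants, while replicate 2 lay inside the wild-type range, and the log2 fold change of 0.35 ± 0.20 did not pass (adjusted p = 0.212, and 0.119 at 0.39 without replicate 3). CYP79B3 (0.033 ± 0.28) and SUR1 (0.31 ± 0.23) did not pass and overlapped wild type. They were at -0.014 and 0.41 without gun1 fug1 replicate 3 and did not pass either.

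All of these differences are relative to the bulk of the genes tested, because TMM scaling sets that bulk to a log2 fold change near 0. Scaled by library totals, in which plastid-encoded reads predominate, the median of all genes moved to -0.54 for gun1, -1.16 for fug1 and -1.17 for the double mutant. The median of the double mutant moved only to -0.62 without its replicate 3. CYP79B2 was then at 0.35, -0.29 and -0.022 and CYP83B1 at 0.19, -0.54 and -0.75, so that the sign of both turned in fug1 and gun1 fug1. Without gun1 fug1 replicate 3 CYP79B2 was at 0.55 and CYP83B1 at -0.20 in gun1 fug1 by library totals, so that the turn of CYP79B2 there rested on that library. Relative to the moved median CYP79B2 was at 0.89, 0.87 and 1.14, CYP83B1 at 0.73, 0.61 and 0.42, and ESM1 at -0.37, -1.08 and -2.89. ESM1 and CYP83A1 had a negative sign under each scaling tried in the 3 mutants. With library totals 0 of the 9 genes were called in gun1 and in fug1 and 2 in gun1 fug1. With library totals but without gun1 fug1 replicate 3, CYP79F1 passed the filter too, and the counts over 10 genes were 2, 8 and 5. The median of all genes there was -0.54, -1.16 and -0.62, and the share of all genes called is not given here. In fug1 these calls included CYP83B1 as lower (-0.54, adjusted p = 0.00937), opposite to the reported call.

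The second question was whether the double mutant differed from each single mutant. Against gun1, 2 of the 9 genes were called, both lower, against 1.48% of all genes tested called lower and 1.61% called higher. ESM1 was lower with a log2 fold change of -2.51 ± 0.34, 5.70-fold, with adjusted p = 0.000176, and no gun1 fug1 library reached the lowest gun1 library. It was -2.67 ± 0.32 without gun1 fug1 replicate 3 and was called in 12 of 12 fits that left out 1 library. BCAT4 was called lower (adjusted p = 0.0173), at 1 count against 35 in gun1, which gave a 22.1-fold lower level with a counting interval of 3.71 to 898. Its adjusted p was 0.0172 without gun1 fug1 replicate 3. BCAT4 had passed the low-count filter through gun1, so that this call is not independent of the filter. The call was lost without gun1 replicate 2 (adjusted p = 0.0567) and without gun1 fug1 replicate 1 (adjusted p = 0.186), and without gun1 fug1 replicate 2, which held the 1 count, the fitted log2 value moved from -4.16 to -6.54. CYP83A1 had a log2 fold change of -2.56 ± 0.97 with adjusted p = 0.166 (-2.79 without gun1 fug1 replicate 3, adjusted p = 0.157), and the log2 fold changes of the indolic genes and SUR1 ranged from -0.40 (CYP83B1) to 0.16 (CYP79B2), with none called.

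Against fug1 few genes were called: 0.163% of all genes tested were called higher and 0.104% lower. Of the 9 genes, 2 were called and both were lower, BCAT4 and ESM1. ESM1 had a log2 fold change of -1.79 ± 0.36, 3.46-fold lower, with adjusted p = 0.0236. Replicates 1 and 2 of gun1 fug1, at 0.910 and 1.95 CPM, were below every fug1 library, and replicate 3, at 4.80 CPM, lay inside the fug1 range of 3.93 to 6.78 CPM. Without that library the log2 fold change was -1.96 ± 0.33 with adjusted p = 0.00339. The call was lost without fug1 replicate 1 (-1.78, adjusted p = 0.0949), fug1 replicate 3 (-1.58, adjusted p = 0.125) or gun1 fug1 replicate 1 (-1.26, adjusted p = 0.400), and stood at adjusted p = 0.05004, on the other side of the threshold, without gun1 fug1 replicate 2 (-2.12). BCAT4 was 25.7-fold lower by summed counts, 1 against 27, with a counting interval of 4.23 to 1050 and adjusted p = 0.0479 (0.0416 without gun1 fug1 replicate 3). This call too is not independent of the low-count filter, which BCAT4 passed through gun1 and fug1 replicate 3. That call was lost in 8 of 12 fits that left out 1 library, with adjusted p from 0.0517 to 0.402: those without wild type 1, 2 or 3, gun1 replicate 2, fug1 replicate 1 or 3, or gun1 fug1 replicate 1 or 2 (the last moved the fitted log2 value from -4.34 to -6.72). DESeq2 called ESM1 (adjusted p = 0.0197) and gave no adjusted p for BCAT4, so it could not call that gene.

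The third comparison, the interaction, asks whether the change between gun1 fug1 and fug1 differed from the change between gun1 and wild type. Of the 9 genes 1 was called, BCAT4, lower, against 0.540% of all genes tested called lower and 0.800% called higher. BCAT4 was at higher CPM than wild type in all 3 gun1 libraries and in 2 of 3 fug1 libraries, and at 1 count in all in the double mutant. It passed the low-count filter only through gun1 and fug1 replicate 3, where it was high, so that this call is not independent of the filter. The fitted interaction was -5.92 ± 1.08 on the log2 scale (adjusted p = 0.00941), a size that depends on how a group with 1 count is smoothed, and -5.89 without gun1 fug1 replicate 3. It was no longer called without fug1 replicate 3 (-5.28, adjusted p = 0.0535) or without gun1 fug1 replicate 1 (-5.02, adjusted p = 0.0827). CYP83B1, at 19.3 to 23.4 CPM in the single mutants and 13.5 to 20.1 CPM in the double mutant, had an interaction of -1.01 ± 0.28 (adjusted p = 0.0616). ESM1 had -1.44 ± 0.43 (adjusted p = 0.0892). Without gun1 fug1 replicate 3 both passed, CYP83B1 at -0.96 ± 0.25 (adjusted p = 0.0386) and ESM1 at -1.60 ± 0.40 (adjusted p = 0.0322), so that 3 genes were then called lower. CYP79B2 had an interaction of -0.69 ± 0.35 (adjusted p = 0.285).

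Ratios within a library set the branches side by side with no scaling at all. CYP83A1 and CYP83B1 catalyse the same step in the aliphatic and the indolic branch and are 65.3% identical in coding sequence. CYP83B1 had 14.7, 6.78 and 3.18 counts per CYP83A1 count in wild type. The values were 10.5, 22.8 and 14.4 in gun1, then 72.5, 81 and 12.2 in fug1, while the double mutant had 132.5, 48.3 and 12. The wild-type libraries themselves spread widely, and gun1 replicates 1 and 3, fug1 replicate 3 and gun1 fug1 replicate 3 fell among them. The log2 ratio of CYP83A1 to CYP83B1 was -2.77 ± 1.1 for wild type (SD, n = 3). It was -3.92 ± 0.56 for the gun1 libraries, -5.38 ± 1.53 for fug1 and -5.41 ± 1.74 for the double mutant. The differences from wild type were -1.15 (p = 0.300), -2.60 (p = 0.200) and -2.64 (p = 0.200) by two-sided exact permutation tests, and 3 libraries against 3 cannot give a p below 0.1.

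ESM1 had 1.08, 0.811 and 0.789 counts per CYP83B1 count in wild type. The values were 0.506, 0.355 and 0.381 in gun1, then 0.283, 0.204 and 0.338 in fug1, while the double mutant had 0.0453, 0.145 and 0.333. Wild type was above all 9 mutant libraries, and gun1 was above all of fug1 and gun1 fug1. Replicate 3 of gun1 fug1 lay within the fug1 range. This ratio was also chosen after its values were seen and is given without a test.

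**Figure D3:**
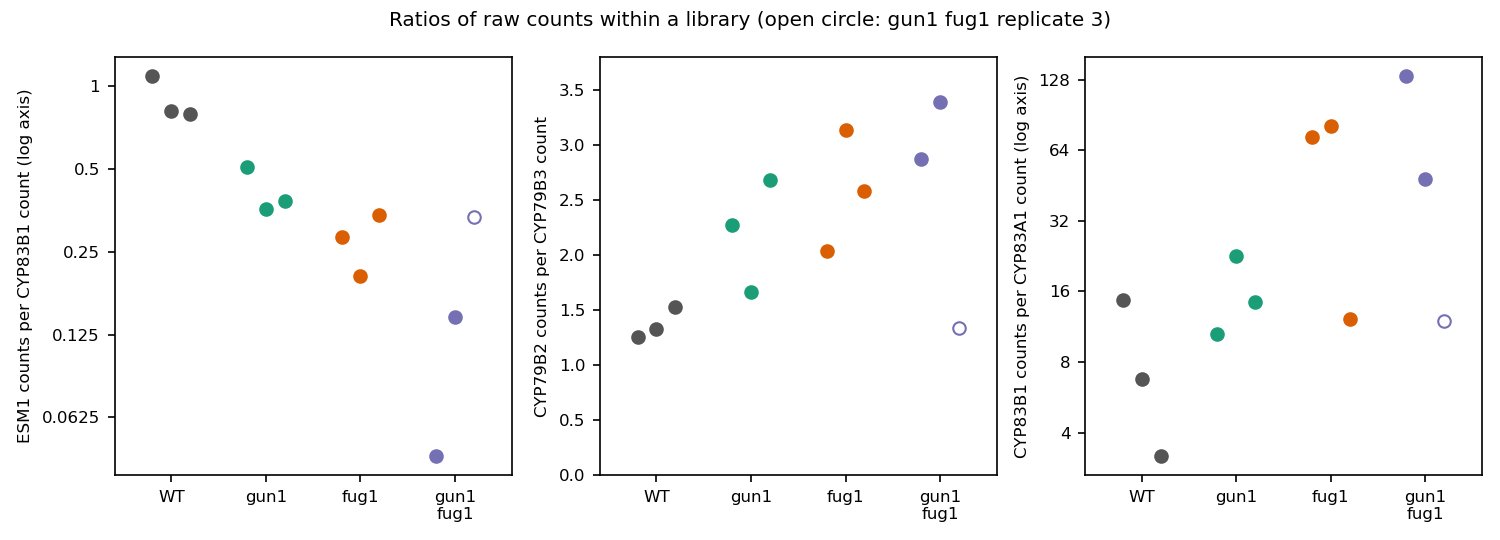
Ratios of raw counts within each of the 12 libraries (y axis; logarithmic in the left and right panels, linear from 0 in the middle one) by genotype. Wild type has the highest ESM1 per CYP83B1 (0.789 to 1.08), the lowest CYP79B2 per CYP79B3 apart from gun1 fug1 replicate 3 (open circle, 1.33), and CYP83B1 per CYP83A1 spreads from 3.18 to 132.5 across libraries.

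BCAT4, CYP83A1 and ESM1, the genes called lower in the double mutant in at least 1 of its 3 comparisons, were chosen after their values were seen and are shown with the 250 bases before their annotated start. Searched on both strands were CACGTG (the G-box, bound by MYC and other bHLH factors), CACATG (a variant that MYC2 binds) and the AC elements, which R2R3 MYB factors bind, in the forms ACCTACC (AC-I), ACCAACC (AC-II) and ACCTAAC (AC-III). These windows are chr3:6849583-6849832 (minus strand), chr4:7992430-7992679 (minus strand) and chr3:4729149-4729398 (plus strand), from RefSeq TAIR10.1, with matches in capitals.
BCAT4: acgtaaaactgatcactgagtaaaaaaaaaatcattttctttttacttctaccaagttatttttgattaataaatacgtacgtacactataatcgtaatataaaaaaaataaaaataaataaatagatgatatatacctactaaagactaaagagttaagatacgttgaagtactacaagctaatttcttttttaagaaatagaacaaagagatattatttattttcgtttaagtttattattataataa
CYP83A1: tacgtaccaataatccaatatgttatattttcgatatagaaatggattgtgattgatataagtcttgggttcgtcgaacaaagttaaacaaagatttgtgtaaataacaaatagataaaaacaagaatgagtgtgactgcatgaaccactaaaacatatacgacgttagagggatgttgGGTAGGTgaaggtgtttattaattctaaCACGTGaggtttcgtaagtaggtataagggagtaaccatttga
ESM1: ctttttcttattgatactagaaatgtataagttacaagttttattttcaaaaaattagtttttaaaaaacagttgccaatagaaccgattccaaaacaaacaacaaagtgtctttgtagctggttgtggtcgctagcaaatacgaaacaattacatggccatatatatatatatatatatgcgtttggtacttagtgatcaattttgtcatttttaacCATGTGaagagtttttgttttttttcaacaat

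CYP83A1 held CACGTG beginning 43 bases before its start and ACCTACC, read on the opposite strand, beginning 71 bases before it. ESM1 held CACATG on the opposite strand 32 bases before its start, and BCAT4 held none of the motifs. Among the other 7 genes only SUR1 had a match, CACGTG at 50 and ACCTAAC at 31 bases before its start. Of 27443 windows of this length before protein-coding genes, 6.49% held CACGTG, 11.1% CACATG, 1.16% ACCTACC, 2.69% ACCAACC and 2.46% ACCTAAC. The 3 genes thus had no motif in common, and a match in letters is not a measured binding site.

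The rest of the pathway was followed through a list of 66 other genes of glucosinolate synthesis, regulation, transport and breakdown, of which 50 were tested. In gun1, 5 were called higher and 1 lower, against 3.52% and 2.42% of all genes tested. In fug1, 9 were called higher and 5 lower, against 9.94% and 7.88%. In gun1 fug1, 9 were called higher and 9 lower, against 12% and 9.88%. DESeq2 called 3 higher and 2 lower in gun1, 8 and 5 in fug1, and 7 and 9 in gun1 fug1. The share of all genes that DESeq2 called is not given here. The median log2 fold change of the 50 genes was 0.20, -0.07 and -0.22, beside 0.018, -0.0037 and -0.034 for all genes tested. Between gun1 fug1 and gun1, 0 of the 50 were called by edgeR or by DESeq2, and 17 had an unadjusted p under 0.05, of which 15 were lower. Leaving out gun1 fug1 replicate 3 gave 2 calls there, both lower and named after their values were seen: APK1, which activates sulfate (-0.87, adjusted p = 0.0485), and BCAT3 (-1.03, adjusted p = 0.0377). Between gun1 fug1 and fug1, 0 were called by either tool and 3 had an unadjusted p under 0.05.

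Of the genes of aliphatic core synthesis, 5 of the 10 tested were called lower in gun1 fug1 and 0 higher, against 9.88% of all genes tested called lower, with a list median of -1.14. The count was 4 of 10 without gun1 fug1 replicate 3, with a median of -1.18. In fug1 2 of 10 were called lower, against 7.88% of all genes (median -0.54), and in gun1 0 of 10 were called by edgeR or DESeq2 (median 0.20), with 3 at an unadjusted p under 0.05. GSTU20, a glutathione transferase of the aliphatic core, had 6.14, 8.65 and 9.71 CPM in wild type. The double mutant had 2.88, 2.23 and 2.40 CPM, without overlap. Its log2 fold change was -1.66 ± 0.31 in the double mutant (adjusted p = 0.000716; -1.65 without replicate 3) and -1.24 ± 0.28 in fug1 (adjusted p = 0.00501). BCAT3, the plastid aminotransferase that follows BCAT4, was lower in gun1 fug1 (-1.33 ± 0.31, adjusted p = 0.00355). It was at -1.16 without gun1 fug1 replicate 2 (adjusted p = 0.0534) and at -1.49 without replicate 3. The sulfotransferase gene SOT17 was lower in fug1 (-1.97 ± 0.55, adjusted p = 0.0166) with 1, 2 and 4 counts against 30, 21 and 16 in wild type. In the fit without gun1 fug1 replicate 3, BCAT3 was also called lower in fug1 (-0.67, adjusted p = 0.0405), and SOT17 in gun1 fug1 (-1.65, adjusted p = 0.0311). FMOGS-OX2, which oxidises aliphatic side chains, had 40, 27 and 29 counts in wild type, while the double mutant had 5, 0 and 0 (-2.90 ± 0.63, adjusted p = 0.00228; -7.29 without gun1 fug1 replicate 1, which leaves only libraries at 0; -2.85 without replicate 3). FMOGS-OX4, a gene of the same family, was called higher in each mutant, at 1.70 ± 0.36 for gun1, 1.74 ± 0.37 for fug1 and 1.69 ± 0.38 for the double mutant, whose replicate 3 had 0 counts of it (1.84 without that library).

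Of 7 indolic genes outside the 10, those called higher were 2 for gun1, 3 for fug1 and 3 for the double mutant (4 without its replicate 3), against 3.52%, 9.94% and 12% of all genes tested. None of the 7 was called lower in these comparisons, where 2.42%, 7.88% and 9.88% of all genes were, so that a count of 0 is near the background. The list medians were 0.58, 0.47 and 1.03. CYP81F4, a P450 that hydroxylates the indole ring, had 2.85, 2.85 and 7.92 CPM in wild type, 13.9, 21.2 and 33.1 in gun1, 24.6, 19.1 and 28.7 in fug1, and 38.8, 33.3 and 15.6 in gun1 fug1. No mutant library overlapped wild type, and the log2 fold changes were 2.33 ± 0.46, 2.42 ± 0.47 and 2.81 ± 0.48 (adjusted p = 0.0179, 0.00692 and 0.00242; 3.01 in gun1 fug1 without replicate 3). IGMT1, a methyltransferase of hydroxylated indolic glucosinolates, was higher by 1.78 ± 0.49, 2.63 ± 0.48 and 2.39 ± 0.50 on 4 to 25 counts a library (0 in gun1 fug1 replicate 3, without which the last value was 2.49), and its tandem copies may share its reads. APK2, which activates sulfate, was higher in gun1 by 0.80 ± 0.23 (adjusted p = 0.0359). It was not particular to gun1: in the fit without gun1 fug1 replicate 3 it was also called higher in fug1 (0.88, adjusted p = 0.00491).

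Of the breakdown genes, the leaf myrosinase gene TGG2 was lower in gun1 (-1.03 ± 0.24, adjusted p = 0.0131). In the fit without gun1 fug1 replicate 3, TGG2 was also called lower in fug1 (-0.72, adjusted p = 0.0196) and gun1 fug1 (-0.70, adjusted p = 0.0322). The root myrosinase gene TGG4 was higher in fug1 by 3.29 ± 0.65 (adjusted p = 0.00193). Its difference in the double mutant was 3.26 ± 0.67 (adjusted p = 0.00145; 3.37 without replicate 3). PEN2, an atypical myrosinase that acts on indolic glucosinolates, was lower in both lines with the fug1 allele, at -1.11 ± 0.27 for fug1 (adjusted p = 0.00727) and at -1.21 ± 0.29 for the double mutant (adjusted p = 0.00455; -1.13 without replicate 3). PEN2 was no longer called in fug1 without fug1 replicate 2 (-0.92, adjusted p = 0.0520), nor in gun1 fug1 without gun1 fug1 replicate 1 (-0.99, adjusted p = 0.0664). SLIM1, the sulfur-response regulator, was lower in fug1 (-1.35 ± 0.37, adjusted p = 0.0146). Without gun1 fug1 replicate 3 it was also called lower in gun1 (-0.96, adjusted p = 0.0499). By edgeR SLIM1 was the 1 gene of the 50 called in the interaction (2.07 ± 0.52, adjusted p = 0.0476). It was at 2.13 without gun1 fug1 replicate 3, where FMOGS-OX4 was called too, at -1.61. DESeq2 called 0 of the 6 regulator genes tested in the interaction, and called 1 breakdown gene lower instead. The edgeR call of SLIM1 was lost in the 9 fits that left out wild type 1 or 2, gun1 replicate 2 or 3, any fug1 library, or gun1 fug1 replicate 1 or 2 (1.75 to 2.34, adjusted p 0.0644 to 0.249).

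Other calls of these genes also ended when 1 library was left out. In gun1, FMOGS-OX4, CYP81F4, IGMT1, APK2 and TGG2 were no longer called without wild type 2 (1.68, 2.08, 1.55, 0.94 and -0.93) or without gun1 replicate 3 (1.37, 1.94, 1.13, 0.69 and -1.07). FMOGS-OX4, CYP81F4, IGMT1 and APK2 were no longer called without wild type 1 (1.41, 2.06, 1.85 and 0.54), and CYP81F4, IGMT1, APK2 and TGG2 without gun1 replicate 2 (2.38, 1.97, 0.78 and -1.02). APK2 was not called without any 1 of the fug1 libraries either (0.80 each time). In fug1, SLIM1 was no longer called without wild type 1 (-1.27) or fug1 replicate 1 or 3 (-1.18 and -1.27), and SOT17 without wild type 1 or 2 (-1.91 and -1.97) or fug1 replicate 1 or 2 (-1.71 and -1.90).

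**Figure D4:**
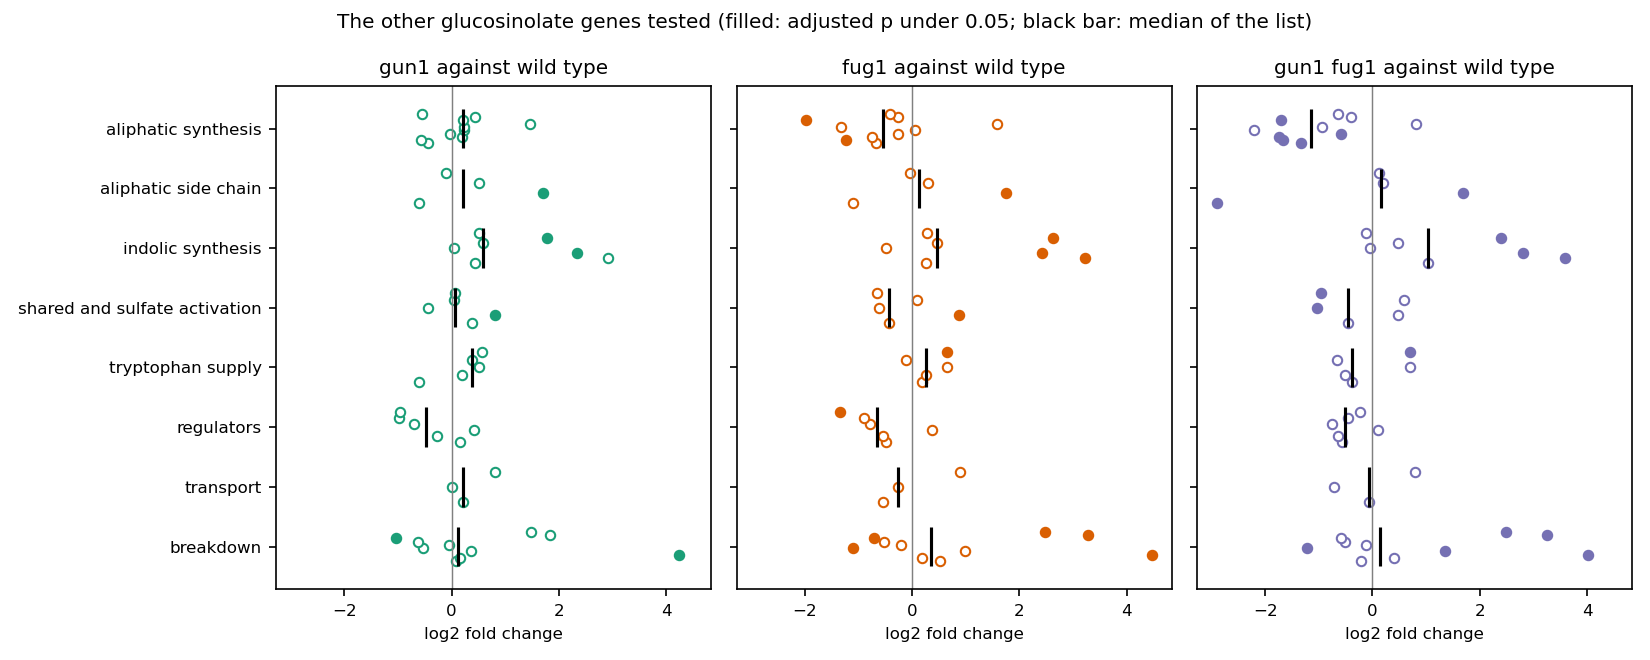
Log2 fold change against wild type (x axis) of the 50 other glucosinolate genes tested, 1 point a gene, in 8 lists by role, with filled points at adjusted p under 0.05 and black bars at the list median. In gun1 fug1 the aliphatic synthesis list has its median at -1.14 and the indolic synthesis list at 1.03. By library totals the median of all genes lies at -0.54, -1.16 and -1.17, which moves every point to the left by about that much. That median in gun1 fug1 is -0.62 without its replicate 3.

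Marker genes of roots and of seeds stood higher in the mutants by their sums, while those of green shoots did not move as a set. The summed level of 8 root and root hair genes was 1.00 to 4.69 CPM in wild type, 5.85 to 48.4 CPM in gun1, 20.2 to 31.0 CPM in fug1 and 28.8 to 58.8 CPM in gun1 fug1, and 3, 6 and 7 of the 7 tested were called higher in gun1, fug1 and gun1 fug1, against 3.52%, 9.94% and 12% of all genes tested. Between 0 and 3 of the 8 were at 0 in a library. The summed level of 8 seed storage and late embryo genes was 6.17 to 16.4 CPM in wild type, 39.9 to 80.2 in gun1, 36.7 to 55.9 in fug1 and 57.2 to 84.0 in gun1 fug1, with 4, 4 and 3 of 5 tested called higher against the same shares of all genes and 0 to 2 of the 8 at 0. The 6 green shoot genes summed to 5816 to 10968 CPM with none at 0 in any library, and 1 of 6 was called lower in each mutant, against 2.42%, 7.88% and 9.88% of all genes. Their median log2 fold changes were -0.012, 0.27 and -0.080. The root and seed markers moved with the genotype beside CYP79B2, CYP83B1, CYP81F4, IGMT1 and TGG4, which were higher, and ESM1 and GSTU20, which were lower. The part of these tissues in those results was not tested.

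For each branch, the genes whose levels followed its enzymes most closely were taken by Pearson's r over the 12 libraries with the mean log2 level of the branch, as a description of libraries that differ in depth and genotype. The aliphatic mean included CYP79F1, which did not pass the low-count filter. Its 4 enzymes did not share 1 pattern: r between them ran from -0.19 (MAM1 with CYP79F1) to 0.73 (CYP79F1 with CYP83A1). MYB28 ranked at place 6256 with 0.21 (place 7496 with 0.028 without gun1 fug1 replicate 3). For the aliphatic enzymes the closest genes were NUDX26 (0.885), MSBP1 (0.872), AT5G22090 (0.858), FRS4 (0.858) and ESE3 (0.854), and ESM1 ranked at place 93 with 0.724. Without gun1 fug1 replicate 3 the r values of the 5 genes were 0.881, 0.886, 0.852, 0.853 and 0.851, their places were 7, 4, 19, 17 and 22, and ESM1 stood at place 210 with 0.734, so that the order depends on that library. For the indolic enzymes they were PER1 (0.870), a peroxiredoxin gene of seeds, ABCC5 (0.860), ADH1 (0.852), AT3G12760 (0.842) and AT2G18370 (0.838), with values of 0.871, 0.861, 0.852, 0.859 and 0.851 and places 4, 7, 10, 8 and 11 without that library. SUR1 had an r of 0.356 with the indolic enzymes over 12 libraries and of 0.809 over the 11 libraries without gun1 fug1 replicate 3, which held 2 counts of it.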

How the data were processed

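Total RNA of whole seedlings was sequenced in 12 libraries. Per the submitters' processing notes, reads were handled with Trimmomatic, FastQC, TopHat2 2.1.1 and featureCounts on the TAIR10 build, and the authors deposited 1 table of raw read counts per gene for each library. The strand setting and the treatment of reads with several matches are not given in the sources used here. From the deposited counts, R 4.3.3 with edgeR 4.0.16 (filterByExpr, TMM, robust quasi-likelihood F test, genotype as the only term, all 12 libraries in 1 fit) tested 15371 of 36917 identifiers, with Benjamini-Hochberg adjustment over all of them and a call at adjusted p under 0.05. SE is the log2 fold change divided by the square root of F. DESeq2 1.42.0, other scalings and filters, smaller fits, a replicate block and leaving out each library were alternatives. Counts of 3 or fewer in a group were given as ratios of summed counts with exact 95% binomial intervals. The model was tested on simulated data.

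The 10 genes, the 66 other pathway genes, the marker lists and the tests were chosen with earlier results of these data known. Named are the 10 genes in each comparison, from the other pathway genes up to 4 called higher and 4 called lower per comparison by p, and 5 genes most alike in pattern per branch. Positions, exon lengths, coding sequences and windows come from RefSeq TAIR10.1. Replicate numbers come from the sample titles. They were not used to pair the libraries in the reported fit, as 3 of 18 same-numbered pairs correlated above 0.1 after removing group means. The highest were wild type 3 with gun1 replicate 3 (0.36) and wild type 1 with gun1 replicate 1 (0.31). Whether same-numbered libraries shared a condition was not tested. The deposited counts of the gun1 fug1 libraries carry other numbers than their titles. Pairing by number, the replicate block included, is therefore uncertain for that genotype.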

Additional observations from a re-analysis of the deposited data

Results flagged for a closer look

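BCAT4 was singled out because its response to the loss of GUN1 differed between the fug1 and the wild-type background by a test of that difference. The interaction was -5.92 ± 1.08 on the log2 scale (adjusted p = 0.00941, edgeR's quasi-likelihood test). BCAT4 had 18 counts in the 3 wild-type libraries, 35 in gun1 and 27 in fug1, while the double mutant had 1, so the size of the interaction rests on a group with 1 count. BCAT4 passed the low-count filter only through gun1 and fug1 replicate 3, where it was high. The test of its interaction is therefore not independent of that selection. DESeq2 called 0 of the 9 genes in the interaction, but it gave no adjusted p for BCAT4 there, so BCAT4 could not be called by it.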

How the results depend on the processing

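The 14 member values called in the reported fit kept their sign in 291 of 297 alternative values and their call in 213. ESM1 in gun1 fug1 against wild type and against gun1 was called in each fit that left out 1 library, while library totals (gun1 comparison) and nuclear totals (both), which give up the TMM factor, did not call it. The 6 turned signs were those of CYP79B2 and CYP83B1 under library or nuclear totals, where the median of all genes moved as given above. For the other changes the cause was not tested. Depth limits BCAT4, CYP79F1, MYB28 and CYP83A1, which had 0 to 76 counts in each library. The nuclear totals were added after seeing the data. The replicate block moved BCAT4 in gun1 fug1 against fug1 to adjusted p = 0.0582, called CYP83A1 lower in fug1 (-1.60, adjusted p = 0.0361), and left the other member calls on their side of the threshold, and 7 of 12 libraries correlated best with a library of their own number. ESM1 in gun1 fug1 against fug1 had adjusted p = 0.0524 with the stricter filter and 0.0700 with the compared groups alone, and BCAT4 in gun1 fug1 against gun1 had 0.0593 with the compared groups alone. DESeq2 gave no adjusted p for 9 member values, which therefore could not be called. Among them was BCAT4 in gun1 fug1 against gun1, against fug1 and in the interaction. The log2 ratios of CYP83A1 to CYP83B1 kept their direction without each library.

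The counts of calls below are, in order, for gun1, fug1 and gun1 fug1 against wild type, gun1 fug1 against gun1 and against fug1, and the interaction. They carry no direction and, for the alternatives, no share of all genes called, so they describe the processing and not the genes. CYP79F1 could be counted where it passed the filter, as with no filter and with library totals without gun1 fug1 replicate 3. Of the 9 genes tested, 2, 4, 3, 2, 2 and 1 were called in the reported fit. With library totals they were 0, 0, 2, 0, 0 and 0. With library totals, without gun1 fug1 replicate 3 they were 2, 8, 5, 2, 3 and 2. The median of all genes against wild type was then -0.54, -1.16 and -0.62, and these were not all the reported calls. CYP83B1 in fug1, for example, was called lower there (-0.54, adjusted p = 0.00937). With nuclear totals they were 0, 0, 0, 0, 0 and 0. With no filter they were 2, 5, 4, 3, 2 and 2. With the stricter filter they were 2, 3, 2, 1, 0 and 0. With DESeq2 they were 1, 1, 3, 1, 1 and 0. With the compared groups alone (no interaction) they were 1, 3, 3, 1 and 0. With the replicate block they were 2, 5, 3, 2, 1 and 1. Without 1 library at a time they ranged over 0 to 2, 1 to 4, 1 to 3, 1 to 2, 0 to 2 and 0 to 3. Of the other pathway genes, 6, 14, 18, 0, 0 and 1 were called in the reported fit. With library totals they were 0, 0, 1, 0, 0 and 0. With library totals, without gun1 fug1 replicate 3 they were 19, 37, 28, 0, 6 and 17, with the median of all genes moved as given above for that setting. With nuclear totals they were 0, 0, 0, 0, 0 and 0. With no filter they were 7, 13, 21, 6, 0 and 5. With the stricter filter they were 5, 9, 11, 3, 0 and 0. With the compared groups alone (no interaction) they were 2, 15, 12, 0 and 0. With the replicate block they were 6, 13, 18, 4, 0 and 0. Without 1 library at a time they ranged over 0 to 12, 7 to 18, 8 to 21, 0 to 4, 0 to 0 and 0 to 4.

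With library totals, the values of opposite sign were, in gun1 against wild type CYP79B3 -0.35 and SUR1 -0.25, in fug1 against wild type CYP79B2 -0.29, CYP79B3 -1.14, CYP83B1 -0.54 and SUR1 -0.79, in gun1 fug1 against wild type CYP79B2 -0.022, CYP79B3 -1.14, CYP83B1 -0.75 and SUR1 -0.74, in gun1 fug1 against gun1 CYP79B2 -0.37 and SUR1 -0.49, in gun1 fug1 against fug1 SUR1 0.050, and in the interaction CYP79B3 0.35 and SUR1 0.30. With library totals, without gun1 fug1 replicate 3, the values of opposite sign were, in gun1 against wild type CYP79B3 -0.35 and SUR1 -0.25, in fug1 against wild type CYP79B2 -0.28, CYP79B3 -1.14, CYP83B1 -0.54 and SUR1 -0.79, in gun1 fug1 against wild type CYP79B3 -0.59, CYP83B1 -0.20 and SUR1 -0.17, in gun1 fug1 against fug1 MAM1 0.41, CYP83B1 0.35, SUR1 0.63 and MYB28 0.33, and in the interaction CYP79B2 0.48, CYP79B3 0.89, CYP83B1 0.15 and SUR1 0.88. With nuclear totals, the values of opposite sign were, in gun1 against wild type CYP79B3 -0.092, in fug1 against wild type CYP79B3 -0.39 and SUR1 -0.022, in gun1 fug1 against wild type CYP79B2 -0.029, CYP79B3 -1.15, CYP83B1 -0.74 and SUR1 -0.73, in gun1 fug1 against gun1 CYP79B2 -0.62 and SUR1 -0.75, in gun1 fug1 against fug1 CYP79B2 -0.49 and CYP79B3 -0.76, and in the interaction MAM1 -0.022 and MYB28 -0.28. With RLE scaling, the values of opposite sign were, in fug1 against wild type CYP79B3 -0.045, in gun1 fug1 against wild type CYP79B3 -0.028, and in gun1 fug1 against gun1 SUR1 -0.014. With nuclear genes only, the values of opposite sign were, in fug1 against wild type CYP79B3 -0.030, in gun1 fug1 against wild type CYP79B3 -0.012, and in gun1 fug1 against gun1 SUR1 -0.0018. With no filter, the values of opposite sign were, in fug1 against wild type CYP79B3 -0.058, in gun1 fug1 against wild type CYP79B3 -0.049, and in gun1 fug1 against gun1 SUR1 -0.019. With the stricter filter, the values of opposite sign were, in fug1 against wild type CYP79B3 -0.098, in gun1 fug1 against wild type CYP79B3 -0.015, and in gun1 fug1 against fug1 SUR1 0.013. With DESeq2, the values of opposite sign were, in fug1 against wild type CYP79B3 -0.045, in gun1 fug1 against wild type CYP79B3 -0.018, and in gun1 fug1 against gun1 SUR1 -0.029. With the compared groups alone, the values of opposite sign were, in fug1 against wild type CYP79B3 -0.0014, and in gun1 fug1 against gun1 SUR1 -0.029. With the replicate block, the values of opposite sign were, in fug1 against wild type CYP79B3 -0.0099, and in gun1 fug1 against fug1 MAM1 0.087. Leaving out 1 library turned the sign of these uncalled values, which ranged in gun1 against wild type CYP83A1 -1.04 to 0.14 and CYP79B3 -0.0041 to 0.27, in fug1 against wild type CYP79B3 -0.22 to 0.21, in gun1 fug1 against wild type CYP79B3 -0.32 to 0.37, in gun1 fug1 against gun1 CYP79B2 -0.19 to 0.32, CYP79B3 -0.53 to 0.16, SUR1 -0.15 to 0.12 and MYB28 -1.55 to 0.18, in gun1 fug1 against fug1 MAM1 -1.03 to 0.36, CYP79B2 -0.17 to 0.34, CYP79B3 -0.34 to 0.35, SUR1 -0.21 to 0.056 and MYB28 -1.17 to 0.23, and in the interaction MAM1 -0.46 to 0.94, CYP83A1 -1.75 to 0.56, CYP79B3 -0.56 to 0.15 and MYB28 -0.56 to 1.20.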
